A study of Mus musculus with 7 samples.

Results

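Fc receptors are cell-surface proteins that bind the constant part of antibodies. The 6 genes described here encode the mouse receptors for IgG and IgM that are found on myeloid cells and lymphocytes: the IgG receptor genes Fcgr1, Fcgr2b, Fcgr3 and Fcgr4, the gene of their shared signalling chain Fcer1g, and the IgM receptor gene Fcmr. They were taken by gene symbol, and all 6, of 16593 named genes, were represented on the array, by 8 of its 25695 probes. The set was chosen by its measured difference between the genotypes, with Fcgr4 and Fcmr already known to differ, so the differences and adjusted p-values given for the 6 genes describe these arrays and do not test the choice.

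The arrays carried RNA of whole thymus from 7 mice aged 8 weeks, 3 with the genotype RelB-/- and 4 with the genotype RelB+/-. RelB is a subunit of the transcription factor NF-kB. The comparison asked which thymic transcripts differ when both copies of the gene are disrupted rather than 1. The heterozygous controls were called wild type in the sample titles, and the sources used here do not give the strain, the sex or the design of the disrupted allele. Each mouse had 1 Illumina array, and all 7 arrays lay on 1 chip.

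In the mouse, Fcgr1, Fcgr3 and Fcgr4 encode activating receptors. These proteins lack a signalling motif of their own and rely on the Fcer1g chain, whose tyrosine-based activation motif recruits the kinase Syk. Fcgr2b is the inhibitory member, carries an inhibitory motif in its own tail, and recruits the phosphatase SHIP, encoded by Inpp5d. Neutrophils, monocytes and macrophages carry these receptors, and Fcgr2b is also the main IgG receptor of B cells. Fcmr belongs to another branch of the immunoglobulin-like receptors, binds IgM and is found in the mouse mainly on B cells. RNA of a whole organ does not tell apart fewer cells of a type from less RNA per cell.

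The promoters of Fcgr4 and Fcmr are shown because these genes differed between the genotypes, in opposite directions. Each run is the 250 bases before the RefSeq start on the plus strand of chromosome 1, assembly GRCm38.p6, from chr1:171018676-171018925 for Fcgr4 and chr1:130865527-130865776 for Fcmr. Capitals mark matches to the NF-kB consensus, to the PU.1 core GAGGAA (read on the other strand in both) and, in Fcgr4 alone of these, to the interferon regulatory factor motif, GAAA and a second GAAA 2 bases apart.
Fcgr4: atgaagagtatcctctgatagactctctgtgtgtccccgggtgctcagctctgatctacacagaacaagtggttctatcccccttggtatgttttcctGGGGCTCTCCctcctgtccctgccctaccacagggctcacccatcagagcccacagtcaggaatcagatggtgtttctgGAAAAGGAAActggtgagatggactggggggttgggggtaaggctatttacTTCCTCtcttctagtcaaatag
Fcmr: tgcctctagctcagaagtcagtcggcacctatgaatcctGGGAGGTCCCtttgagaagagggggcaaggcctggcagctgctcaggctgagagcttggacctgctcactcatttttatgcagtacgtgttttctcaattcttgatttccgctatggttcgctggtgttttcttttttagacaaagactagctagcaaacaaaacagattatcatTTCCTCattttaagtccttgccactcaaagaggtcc
Both strands were searched for these motifs and for the AP-1 motif TGANTCA, and no matches overlapped. Of 32851 RefSeq promoter windows of this length, 7.25% held the NF-kB consensus, 23.3% the PU.1 core and 2.98% the interferon regulatory factor motif. The AP-1 motif occurred in 6.75% of windows. Fcgr3 also matched the NF-kB consensus and the PU.1 core, Fcgr1 matched the PU.1 core, and none of these motifs was found in the windows of Fcgr2b and Fcer1g. A match is a stretch of letters and not a measured binding site.

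Values below are log2 intensities after background correction and quantile normalization. Each difference is RelB-/- minus RelB+/-, its SE and interval come from limma's moderated linear model, and adjusted p-values are Benjamini-Hochberg values over all 9569 genes tested. With 3 and 4 mice, precision is limited by their number. Levels of different probes are not comparable with each other. Median raw intensity ranged from 103.5 to 142.3 over the 7 arrays, and 45.9% to 49.4% of probes were detected at a detection p under 0.05. The tissue label was checked on 9 thymus genes. The thymocyte genes Cd3e, Cd4, Cd8b1, Rag1, Rag2 and Ptcra were detected on all 7 arrays, with differences from 0.058 to 0.56 and 0 called, whereas Cd8a was detected on 0 arrays and the epithelial regulator Foxn1 on 1. The Relb probe was above background on 4 of 4 control arrays and on none of the 3 RelB-/- arrays, a fall of at least 4.48-fold (limma adjusted p = 0.000173). RelB-/- 3 and RelB+/- 2 stood apart from the other arrays by heart muscle transcripts. The mean of the 2 tested heart genes was 5.60 and 3.80 above the RelB+/- mean there, and between -1.48 and -0.98 elsewhere.

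Of the 6 genes, 5 had a probe detected on at least 3 arrays and entered the test, and Fcgr1 did not. At an adjusted p under 0.05, Fcgr4 was higher and Fcmr was lower in RelB-/- thymus, that is 2 of 5, where 0.773% of all genes tested were called, 0.105% higher and 0.669% lower. The genotypes did not overlap for these same 2 genes. Over all genes tested, 13.6% showed no overlap, 7.38% higher and 6.25% lower. Of the 5 tested genes 2 had a positive difference, Fcgr4 and Fcgr3, against 53.8% of all genes. Since this contrast was known when the genes were chosen, nothing is read from these shares. Fcgr2b, Fcgr3 and Fcer1g overlapped between genotypes and did not pass the test.

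**Figure D1:**
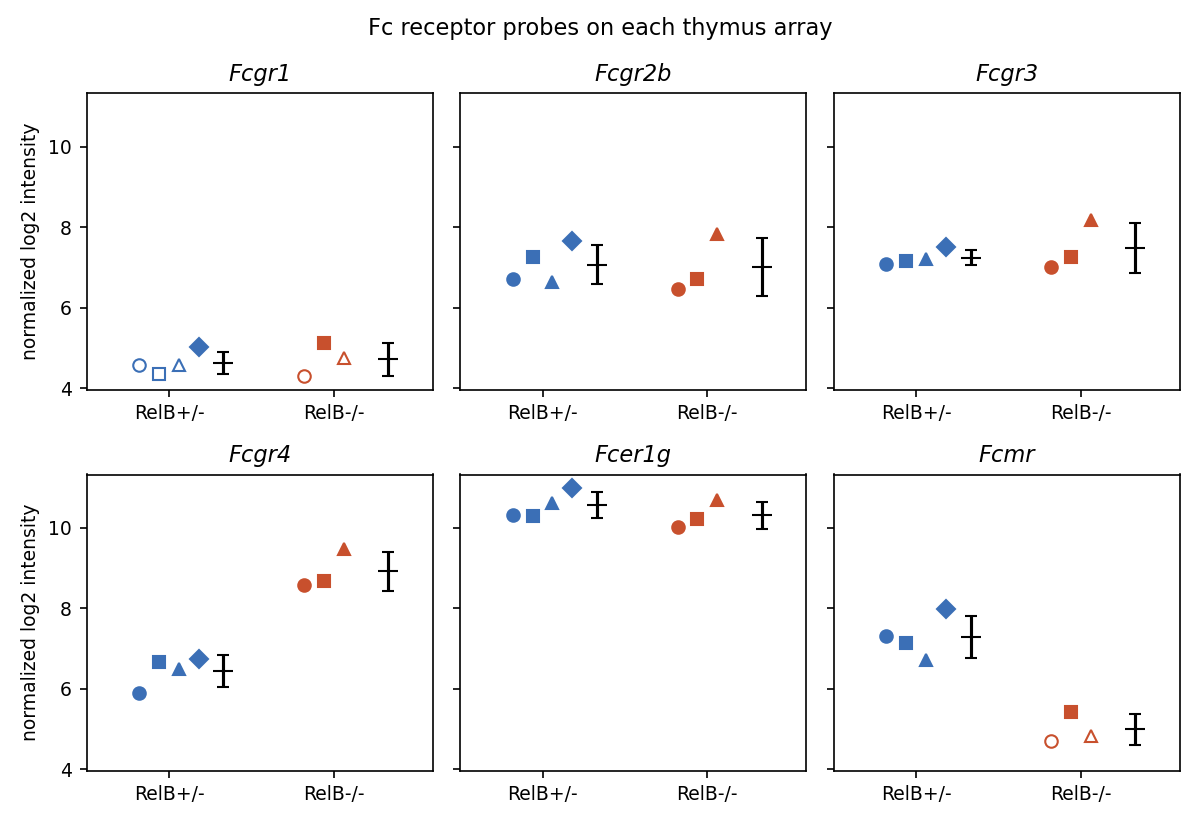
Normalized log2 intensity (vertical axis) of the 6 Fc receptor genes on each array, with RelB+/- arrays in blue and RelB-/- arrays in red, for the probe with the highest mean of each gene. Circles, squares, triangles and diamonds are replicates 1 to 4, open symbols mark arrays on which the probe was not detected, and black bars give the mean and SD. All 3 RelB-/- arrays lie above the 4 RelB+/- arrays for Fcgr4 and below them for Fcmr.

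Fcgr4 encodes the activating mouse receptor that binds IgG2a, IgG2b and IgG2c, found on neutrophils, monocytes and macrophages. Its single probe (ILMN_2631161) read 5.88, 6.67, 6.48 and 6.73 in the RelB+/- mice, in order of replicate, and 8.59, 8.68 and 9.48 in the RelB-/- mice. The lowest RelB-/- array stood well above the highest RelB+/- array. Before normalization the raw signals were 152, 154, 197 and 256 on the RelB+/- arrays and 391, 510 and 933 on the RelB-/- arrays, and the probe was detected on all 7. The mean rose from 6.44 ± 0.39 (SD, n = 4) to 8.92 ± 0.49 (SD, n = 3). This is a log2 difference of 2.47 (SE 0.28, 95% interval 1.84 to 3.11, limma adjusted p = 0.0055), or 5.56-fold, and it was the 9th highest of the 9569 differences. The call held in all 18 alternatives, with differences from 1.27 with the authors' processed values to 2.62. Without both arrays that held heart muscle transcripts the difference was 2.29 (adjusted p = 0.034).

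Fcgr1 encodes the high-affinity IgG receptor of macrophages, monocytes and dendritic cells. Its probe (ILMN_1229523) was above background in 1 of 4 control and 1 of 3 RelB-/- mice. Raw signals were 113, 91.2, 111 and 143 on the RelB+/- arrays and 88.3, 139 and 140 on the RelB-/- arrays, near the median of each array. A fall in Fcgr1 was not detectable at this signal. The mean of the normalized log2 values was 4.63 ± 0.27 (SD, n = 4) in controls and 4.72 ± 0.41 (SD, n = 3) in RelB-/- thymus, with overlapping groups and no test.

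Fcgr3 encodes the low-affinity activating IgG receptor. Raw signals of its probe (ILMN_2687403) were 230.0, 181, 265 and 364 in the RelB+/- mice and 177, 250.4 and 449.7 in the RelB-/- mice. Relative to the RelB+/- mean of 7.24 ± 0.19 (SD, n = 4), the normalized log2 values were -0.15, -0.087, -0.032 and 0.27 against -0.24, 0.017 and 0.95. RelB-/- 3 was the highest array, RelB-/- 1 the lowest, and RelB-/- 2 fell among the controls. The log2 difference was 0.24 (SE 0.27, 95% interval -0.38 to 0.87, limma adjusted p = 0.714), and without RelB-/- 3 it was -0.11. This interval includes 0.

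Fcgr2b, the inhibitory receptor, had 3 probes, of which 1 was kept. The kept probe (ILMN_1228657) read 6.72, 7.25, 6.64 and 7.66 on the RelB+/- arrays and 6.47, 6.71 and 7.83 on the RelB-/- arrays. The genotypes covered nearly the same range. The log2 difference was -0.063 (SE 0.37, 95% interval -0.90 to 0.77, limma adjusted p = 0.959), and its sign turned when RelB-/- 1, RelB-/- 2 or RelB+/- 4 was left out (0.20, 0.081 and 0.14). The other probes, ILMN_3102376 and ILMN_3029178, were detected on 2 of 7 arrays and on 0 of 7 arrays. They gave differences of 0.17 and 0.11 with overlapping groups.

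Fcer1g, the signalling chain on which the activating IgG receptors depend, was detected on all 7 arrays. Its probe (ILMN_2748875) read 10.33, 10.30, 10.62 and 10.99 in RelB+/- thymus and 10.02, 10.23 and 10.69 in RelB-/- thymus. These ranges overlapped, and the highest array was RelB+/- 4. The log2 difference was -0.25 (SE 0.23, 95% interval -0.76 to 0.27, limma adjusted p = 0.646). The difference stayed negative in all 18 alternatives, from -0.52 to -0.10, and passed the test in none of them. The 95% interval given above includes 0.

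Fcmr, the IgM receptor, moved the other way. Its single probe (ILMN_1221820) read 7.30, 7.15, 6.71 and 7.97 in the control mice, against 4.70, 5.43 and 4.83 in RelB-/- mice. The highest RelB-/- array lay below the lowest RelB+/- array. Raw signals were 252, 181, 215 and 456 against 103, 147 and 143, and the probe was detected on 4 of 4 RelB+/- arrays but on only 1 of 3 RelB-/- arrays, RelB-/- 2. The mean went from 7.28 ± 0.52 (SD, n = 4) to 4.99 ± 0.39 (SD, n = 3), a fall of 4.90-fold as fitted. The log2 difference was -2.29 (SE 0.30, 95% interval -2.98 to -1.60, limma adjusted p = 0.012). Because 2 of the 3 RelB-/- signals were not above background, the size of this fall is uncertain.

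The size of the Fcmr difference changed with the processing. It was -1.53 with a larger offset, -1.01 without background correction, and -0.65 (limma adjusted p = 0.131) from the authors' processed values. Fcgr4, detected on all 7 arrays, also had smaller differences under these settings (2.09, 1.66 and 1.27). The cause of these changes was not tested. The Fcmr call also ended without RelB-/- 1 (-2.18, adjusted p = 0.068), and without both arrays that held heart muscle transcripts (-2.30, adjusted p = 0.090).

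**Figure D2:**
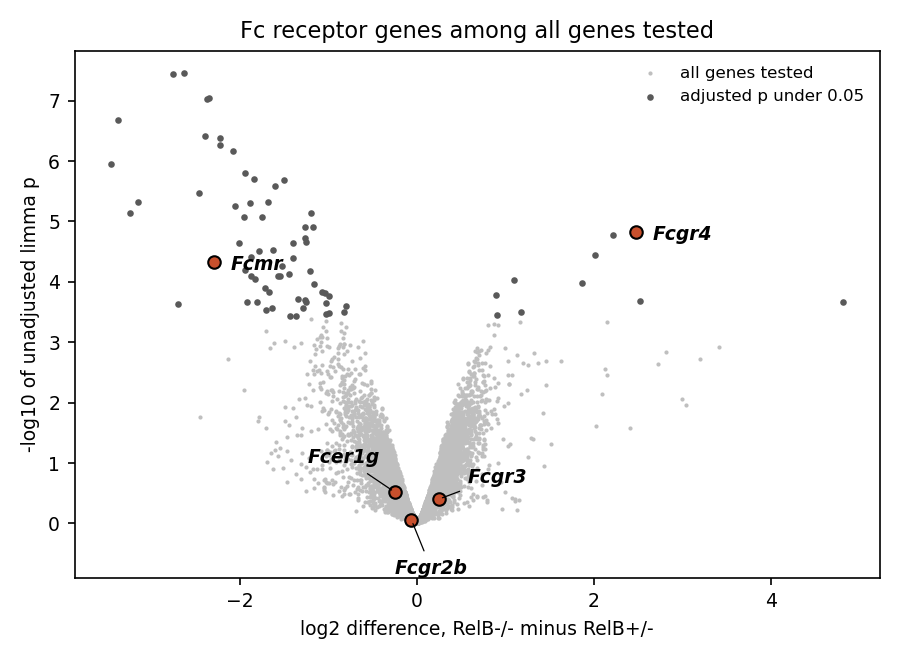
Log2 difference between genotypes (horizontal axis) against -log10 of the unadjusted limma p (vertical axis) for the 9569 genes tested in grey, with genes called at an adjusted p under 0.05 in dark grey and the 5 tested Fc receptor genes in red. Fcgr4 lies among the few called higher genes and Fcmr among the more numerous lower ones, while Fcgr2b, Fcgr3 and Fcer1g lie near 0.

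Within each genotype the IgG receptors and Fcer1g varied in a similar way. Fcgr2b, Fcgr3, Fcgr4 and Fcer1g all had their highest RelB+/- value on RelB+/- 4 and their highest RelB-/- value on RelB-/- 3. All 4 also had their lowest RelB-/- value on RelB-/- 1. After genotype means were subtracted, Pearson's r over the 7 arrays lay between 0.73 and 0.90 for the 6 pairs of these genes, and between 0.040 and 0.37 for their pairs with Fcmr. Median raw intensity was likewise highest on RelB+/- 4 (136.1) and RelB-/- 3 (142.3), and lowest among RelB-/- arrays on RelB-/- 1 (105.2). Its part in the shared pattern was not tested. Genes outside this family reached a higher r with Fcgr4 by the same measure (Pcolce2, 0.993). Pcolce2 was picked as the highest of all named genes tested, so its value cannot show whether the pattern is particular to the receptors. These values describe 7 arrays that share a chip and are given with no test.

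Genes measured with a profile like that of Fcgr4 were sought over the same 7 arrays. The highest Pearson's r with Fcgr4 was that of Eri1 (0.981), followed by Dzip1 (0.975), Chil3 (0.966), Senp6 (0.957) and Lilra6 (0.957). For Fcmr the order was Cdkn1a (0.996), Efs (0.990), Havcr2 (0.982), Tcaf2 (0.980) and Pla2g2d (0.980). The genotype difference contributes to each of these values. After genotype means were subtracted, none of these 10 genes stayed among the 5 most alike. Pcolce2, Slc25a1, Mgst1, Ppm1m and Tcim (r from 0.983 to 0.993) were then closest to Fcgr4. P4hb, Ccpg1, Vwa5a, Smtn and Prrx1 (0.980 to 0.984) were closest to Fcmr.

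In RefSeq gene order Fcgr2b, Fcgr4 and Fcgr3 follow each other on chromosome 1, where Fcer1g and Fcmr also lie, and Fcgr1 is on chromosome 3. Fcgr4 thus sat between 2 relatives that did not pass the test. Among the 5 nearest coding genes on each side of each of the 6, other than the 6 themselves, 16 of 37 were tested and 0 were called by limma. Their differences ranged from -0.91 to 0.50, and at an unadjusted p under 0.05 across all genes tested 603 were lower and 658 higher.

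Other receptors for antibodies were examined from a list of 13 genes, of which 6 were tested and 0 called, with a median difference of 0.026 against 0.025 for all genes tested. Fcgrt, the neonatal Fc receptor that recycles IgG, differed by 0.044 (SE 0.35). Trim21, the cytosolic antibody receptor, differed by 0.22 (SE 0.15). Fcrla, an Fc receptor-like gene of B cells next to the IgG receptor cluster, differed by -0.82 (SE 0.30, limma adjusted p = 0.321). The low-affinity IgE receptor of B cells, Fcer2a, was above background in 3 of 4 controls and in no RelB-/- mouse. It was at least 1.22-fold lower without passing the test (limma adjusted p = 0.325). Pigr and Fcamr, which also encode IgM-binding receptors, were detected on no array.

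Of the genes for antibodies and plasma cells, 3 of 15 were tested, and no immunoglobulin gene of the list had a probe named on this array. Mzb1, a chaperone of IgM assembly, fell by 1.29 (SE 0.22, limma adjusted p = 0.039), a call that ended when any single array other than RelB+/- 2 was left out (adjusted p up to 0.136).

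None of the signalling partners examined passed the test. Of 17 signalling adapters and related receptors, 12 were tested and 0 called, with a median difference of 0.13. Tyrobp, the other main adapter of myeloid cells, differed by 0.00059 (SE 0.22). Trem3, a myeloid receptor that signals through Tyrobp, was above background in 1 of 4 control and 3 of 3 RelB-/- mice and differed by 1.04 (SE 0.28, limma adjusted p = 0.195). Clec7a, the beta-glucan receptor Dectin-1, differed by -1.07 (SE 0.35, adjusted p = 0.283).

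Among 20 activating signal transducers, 13 were tested and 0 were called, with differences from -0.33 to 0.44. Sh3bp2, an adapter protein of immune receptors, had the smallest p (0.44, SE 0.16, adjusted p = 0.310). Syk was detected on no array. Of 16 inhibitory genes, 10 were tested and 0 called. Inpp5d, the phosphatase recruited by Fcgr2b, differed by 0.057 (SE 0.18), and Ptpn6, the phosphatase SHP-1, by -0.099 (SE 0.16). Among 8 regulators of Fc receptor expression, 5 were tested and 0 called. Il4, which encodes a cytokine known to alter the balance of these receptors, differed by 0.41 (SE 0.43). Spi1, which encodes PU.1, was above background in 3 of 4 control mice and in no RelB-/- mouse. Its mean was at least 1.16-fold lower, with overlapping groups, and it did not pass the test (limma adjusted p = 0.317).

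Markers of the cells that carry the IgG receptors were examined next. Of 16 granulocyte markers, 12 were tested. All 12 had positive differences, against 53.8% of all genes tested, with a median of 2.27. Elane and Prtn3 were detected on 1 of 4 RelB+/- arrays, and Ctsg and Ngp on 2. These genes needed RelB-/- arrays to pass the detection filter, which favoured a positive sign. Of the 12, 2 were called higher, where 0.105% of all genes tested were. These were Mpo and Ctsg, both proteins of neutrophil granules. The other 10 had adjusted p-values from 0.11 to 0.454 by limma. Leaving out single arrays ended the call of Mpo in 5 of 7 cases and that of Ctsg in 5 of 7. Of 16 monocyte and macrophage markers, 10 were tested, with a median of -0.11, and 1 was called lower, where 0.669% of all genes tested were. This was Cx3cr1, the fractalkine receptor of patrolling monocytes and some macrophages. Cx3cr1 fell by 1.27 (SE 0.15, limma adjusted p = 0.0064), with signal above background in 4 of 4 control and 1 of 3 RelB-/- mice. Its call was lost without background correction, from the authors' own values, with replicate number as a block, and without the arrays that held heart muscle transcripts (adjusted p up to 0.146). The macrophage genes Adgre1 (0.58, SE 0.31) and Lyz2 (-0.63, SE 0.44) did not pass the test, and Itgam and Ccr2 were detected on no array. Eosinophil markers had 3 of 10 members tested, of which Rnase2a was called higher and all 3 were positive. Among all genes tested, 0.105% were called higher and 53.8% were positive. Rnase2a and Ear6 each rose above background in only 1 control mouse, so RelB-/- arrays carried both past the detection filter. This favoured a positive sign, and nothing is read from these eosinophil counts. The Rnase2a call ended in 13 of 17 alternatives, among them 5 of the 7 with a single array left out.

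**Figure D3:**
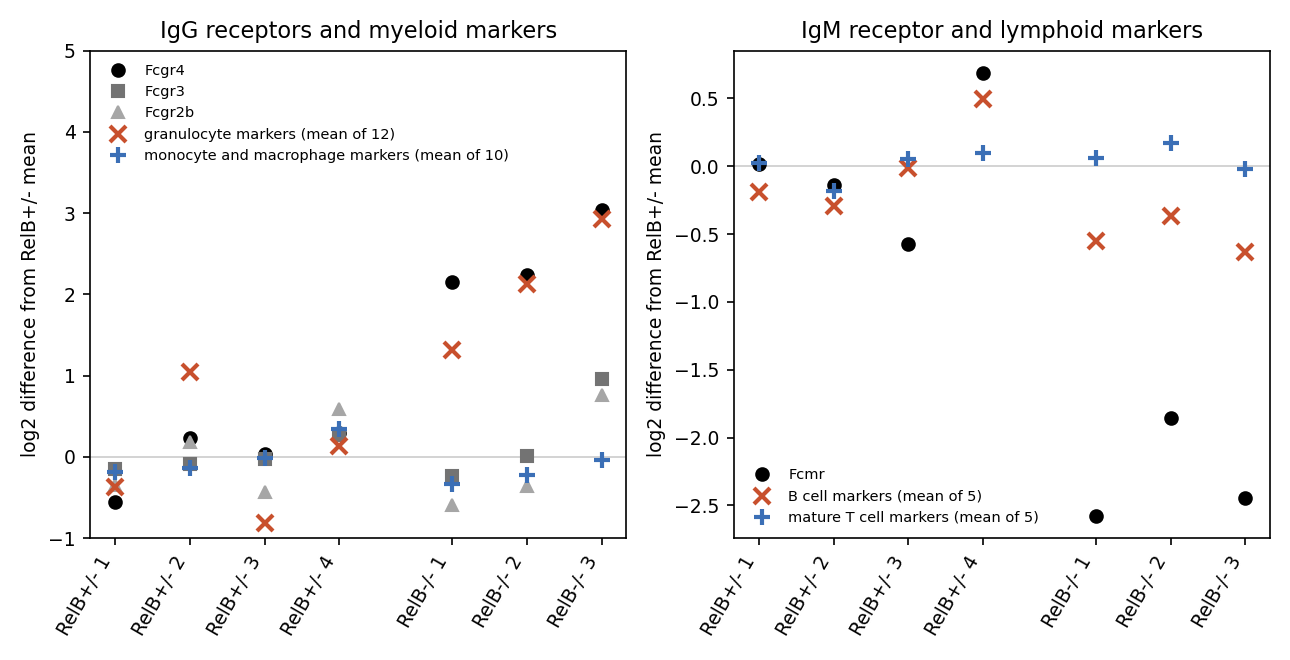
Difference of each array from the RelB+/- mean on the log2 scale (vertical axis), by array (horizontal axis), for the IgG receptors with granulocyte and macrophage marker means (left) and for Fcmr with B cell and mature T cell marker means (right). Fcgr4 and the granulocyte mean are above 1 on all 3 RelB-/- arrays, and the granulocyte mean alone is above 1 on RelB+/- 2.

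The part of granulocyte content in the Fcgr4 difference was not tested. Relative to the RelB+/- mean, the granulocyte mean stood at 1.32, 2.13 and 2.93 on RelB-/- arrays 1 to 3, where Fcgr4 stood at 2.15, 2.23 and 3.04. On RelB+/- arrays 1 to 4 the granulocyte mean was -0.37, 1.04, -0.81 and 0.13, and Fcgr4 was -0.56, 0.23, 0.036 and 0.29. The summed intensity of the 12 granulocyte genes ranged from 948 to 8726 in RelB+/- and from 6662 to 25680 in RelB-/- thymus. Bright probes weigh most in such sums, here S100a8 (mean 10.30 in RelB+/- and 12.71 in RelB-/- thymus). The granulocyte sums overlapped between genotypes, whereas the granulocyte mean above did not. Of the 12 genes, 6 did not overlap, all higher, where 7.38% of all genes tested were higher without overlap. These 6 include Ctsg and Ngp, which needed RelB-/- arrays to pass the detection filter, as did Elane and Prtn3. The filter thus favoured higher RelB-/- values in this count and in the granulocyte mean, and nothing is read from the count. The summed intensity of the 10 macrophage genes was 8006 to 12172 in RelB+/- and 6837 to 9532 in RelB-/- thymus. For the 3 eosinophil genes the sums were 138 to 538 and 865 to 7490, where the filter again favoured higher RelB-/- values.

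Few B cell markers could be measured on both sides. Of 13 B cell markers, 5 were tested and 0 called. All 5 had negative differences, as did 4420 of all 9569 genes tested. For 3 of the 5, Cd79a, Cd22 and Fcer2a, no RelB-/- array was above background, so their differences are bounds. These 3 passed the detection filter through RelB+/- arrays alone, which favoured a negative sign, so nothing is read from the count of signs. The median was -0.56 as fitted and -0.24 with these 3 at their bound. Cd79a, a chain of the B cell receptor complex, was above background in 3 of 4 control mice and in no RelB-/- mouse. Its mean was at least 1.73-fold lower, with overlapping groups, and it did not pass the test (limma adjusted p = 0.333). Its partner Cd79b, detected on all 7 arrays, differed by -0.11 (SE 0.18), and Cd22, an inhibitory receptor of B cells, was at least 1.18-fold lower (adjusted p = 0.198). Ms4a1, Pax5 and Cr2 were detected on no array. The summed intensity of the 5 B cell genes was 839 to 1421 in RelB+/- and 818 to 1015 in RelB-/- thymus. This sum was made up mostly of Cd79b, with a mean of 9.61 in RelB+/- thymus where the next brightest, Blk, had 7.06. The B cell mean was -0.55, -0.37 and -0.63 on RelB-/- arrays 1 to 3, and Fcmr was -2.58, -1.85 and -2.45. Background limits both, so these sizes are not compared. Both were highest on RelB+/- 4. The part of B cell content in the Fcmr difference was not tested.

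Of 9 markers of mature T cells, 5 were tested and 0 called, with a median of 0.083. Their summed intensity was 3694 to 4657 in RelB+/- and 4711 to 5486 in RelB-/- thymus. Gimap6 made up most of this sum, with a mean of 11.47 in RelB+/- and 11.91 in RelB-/- thymus. The next brightest, Klf2, had 9.21 and 9.18. Of the 5, 3 were positive. Il7r, the interleukin-7 receptor, differed by -0.45 (SE 0.16, limma adjusted p = 0.307), and Gimap6, a GTPase of lymphocytes, by 0.44 (SE 0.19, adjusted p = 0.366). NK cell markers had 5 of 9 members tested and 1 called, Klre1, an NK cell receptor lower by at least 1.88-fold (limma adjusted p = 0.0033). That call was lost without background correction, from the authors' own values and with replicate number as a block (adjusted p up to 0.159). Dendritic cell markers had 6 of 11 tested and 2 called lower, Ccl17 and Fscn1, with a median of 0.018. Leaving out an array ended these calls in 6 and 4 of 7 cases. Mast cell markers had 5 of 7 tested and adipocyte markers 5 of 8, with 0 called in each and medians of -0.11 and -0.66.

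**Figure D4:**
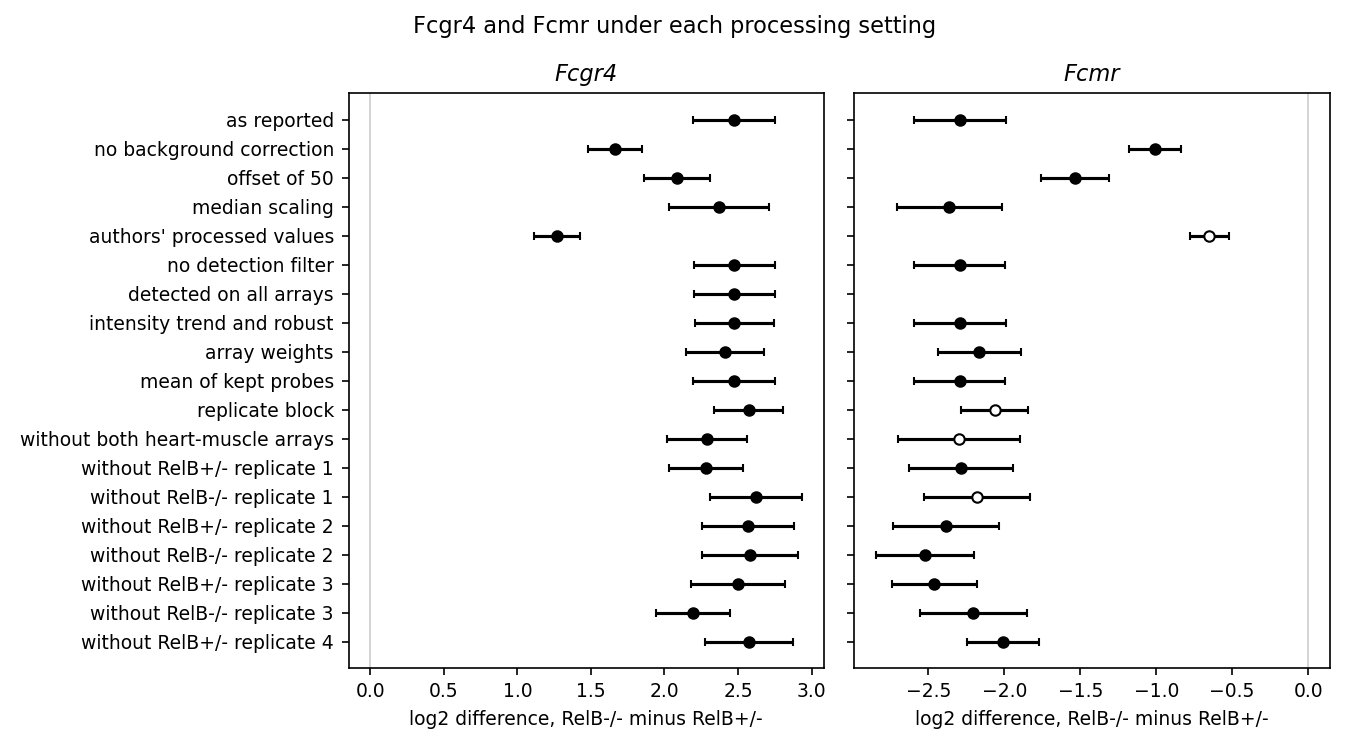
Log2 difference, RelB-/- minus RelB+/- (horizontal axis), of Fcgr4 (left) and Fcmr (right) under each processing setting (vertical axis), with bars of 1 SE from limma. Filled points have an adjusted p under 0.05. All Fcgr4 points are filled, and 4 Fcmr points are open. Fcmr has no point for probes detected on all arrays, where it was not tested.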

How the data were processed

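Probe intensity values were deposited by the authors as exported, on a linear scale without normalization between arrays, and each carried a detection p-value per the file headers. The submitters' processing notes name GenomeStudio without its settings. The authors also deposited a processed table, taken here as log2 values (median 7.65 on the arrays), which ranked probes nearly as the intensities did. Its transformation is not given, and it served as an alternative.

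Background was corrected with limma 3.58.1 in R 4.3.3 (normexp on detection p-values, offset 16), followed by log2 transformation and quantile normalization. Gene names came from the platform annotation, which gave 1 symbol to 23976 of 25695 probes. Probes detected on at least 3 arrays were kept (12465), and the probe with the highest mean stood for each of 9569 genes. Genotypes were compared with lmFit and eBayes, 2-sided, with calls at a Benjamini-Hochberg adjusted p of less than 0.05. The fit was tried on simulated data.

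A gene with no probe above background in 1 genotype has only a bound ("at least"), set against the lowest detected signal. The bound compares group means and carries no sampling error, so it is not a lower confidence limit. The p-values set the genotype difference against the spread between mice, as moderated by limma over all genes tested. With 1 array per mouse, that spread also holds variation between arrays. All genes and lists were chosen with earlier results of these data known. Besides the receptors, up to 4 called genes per list were eligible to be named, or else the 2 with the smallest p. Other list members are background examples chosen with values in view. Promoter sequences are from RefSeq, assembly GRCm38.p6, with 6 of 6 genes matched, and 1 further motif is not reported here.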

Additional observations from a re-analysis of the deposited data

How the results depend on the processing

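Fcgr4 kept its direction and its call in all 18 alternatives. Fcer1g and Fcgr3 passed the test in none, nor did Fcgr2b. Fcmr was lower in all 17 alternatives in which it was tested and lost its call in 4. These were the authors' processed values (-0.65), the replicate block (-2.06, adjusted p = 0.052), the fit without both arrays that held heart muscle transcripts (-2.30), and the fit without RelB-/- 1 (-2.18). With single arrays left out, Fcmr ranged from -2.52 to -2.01, Fcgr4 from 2.19 to 2.62, Fcgr2b from -0.47 to 0.20, Fcgr3 from -0.11 to 0.48 and Fcer1g from -0.43 to -0.10. Fcgr2b turned positive under the replicate block (0.13), and Fcgr3 turned negative without both heart arrays (-0.14). Same-numbered mice had no stated relation, and their deviations from the genotype means correlated at 0.32, -0.18 and -0.20, so no pairing was assumed. The numbers of genes called lower and higher were 64 and 10. They were 23 and 2 with the authors' processed values, 12 and 3 among probes detected on all arrays, where fewer genes were tested, 23 and 1 with the replicate block, and 32 and 6 without both heart arrays. Without background correction, and without a detection filter, 6 were higher. With single arrays left out, 34 to 65 were lower and 4 to 7 higher, the fewest lower without RelB-/- 1 and the fewest higher without RelB+/- 3. Leaving out RelB+/- 1 gave 42 lower, and leaving out RelB-/- 1 or RelB-/- 3 gave 6 and 5 higher. The cause of these changes was not tested. Signals near background limit Fcgr1 and Fcmr in RelB-/- thymus.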
